A study of Mus musculus with 8 samples.

Results

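The 50 genes described here encode proteins that carry a cell through mitosis and cytokinesis. They fall into 6 groups by role: mitotic kinases and spindle checkpoint proteins (12 genes), regulators of CDK1 and the anaphase-promoting complex (6), chromosome condensation proteins (9), proteins of chromatid release and the chromosomal passenger complex (7), spindle proteins (11) and cytokinesis proteins (5). The genes were chosen by symbol for the role of their product, with mitotic kinesins, cyclins and kinetochore genes kept apart. All 50 are among the 56748 genes of the count table. Of these, 43 were among the 11222 genes that passed the filter on low counts and were tested, and 7 (Ttk, Cdca2, Aspm, Dlgap5, Gtse1, Hmmr and Spag5) were below it.

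The RNA was that of Ly6Chigh monocytes, the classical or inflammatory kind of mouse monocyte, which had been sorted from spleen. There were 4 libraries from wild-type animals (WT 1 to 4) and 4 from Olfr2 knockout animals (KO 1 to 4). The knocked-out gene, Olfr2, codes for a receptor of the olfactory family, and its part in monocytes during aortic aneurysm is the subject of the study. All 8 libraries were taken at day 7 after an aneurysm had been induced, so the WT group is also a diseased group and no uninduced group was analysed here. No source used here gives the strain, age or sex of the animals, the agent that induced the aneurysm or the nature of the Olfr2 allele. Whether the libraries stand for separate animals is not stated in the labels, and p-values measure only the spread between libraries.

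A dividing cell first condenses its duplicated chromosomes, then attaches them to a spindle of microtubules. A checkpoint holds it there until every kinetochore is attached. The anaphase-promoting complex, activated by CDC20, then marks securin and cyclin B for destruction, which frees separase to cut the cohesin that joins sister chromatids, and a contractile ring splits the cell. Most genes of this programme are transcribed in G2 and mitosis and are held low in resting cells. Their promoters often carry a CCAAT box, bound by NF-Y, and a cell cycle genes homology region (CHR), bound by MuvB complexes. Ly6Chigh monocytes are mostly non-dividing cells that leave the bone marrow, where their precursors divide, and gather in the spleen as a reserve; monocyte precursors can also divide in the spleen.

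Promoters of 5 members are printed because they show these letters in genes that differ in how they behaved in the libraries. Nek2 and Ect2 passed the test of genotype. Bub3, Ube2c and Racgap1 were the 3 genes of highest mean CPM among the other members whose window holds TTTGAA. Each line gives the 250 bases before the start of transcription, 5′ to 3′ on the strand of the gene, from RefSeq on GRCm38.p6. Capitals mark CCAAT or its reverse complement ATTGG, and TTTGAA or its reverse complement TTCAAA.
Nek2 (chr1:191821223-191821472, plus strand): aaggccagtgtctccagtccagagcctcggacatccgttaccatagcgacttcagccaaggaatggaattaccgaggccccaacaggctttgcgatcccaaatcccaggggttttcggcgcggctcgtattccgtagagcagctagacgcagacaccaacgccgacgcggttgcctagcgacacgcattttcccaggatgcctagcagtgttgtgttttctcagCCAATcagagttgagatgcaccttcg
Ect2 (chr3:27153879-27154128, minus strand): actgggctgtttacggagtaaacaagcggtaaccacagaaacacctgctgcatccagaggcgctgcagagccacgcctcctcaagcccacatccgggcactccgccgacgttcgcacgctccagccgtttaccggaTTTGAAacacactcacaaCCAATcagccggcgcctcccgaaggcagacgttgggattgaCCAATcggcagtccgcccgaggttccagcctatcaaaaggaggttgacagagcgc
Bub3 (chr7:131560120-131560369, plus strand): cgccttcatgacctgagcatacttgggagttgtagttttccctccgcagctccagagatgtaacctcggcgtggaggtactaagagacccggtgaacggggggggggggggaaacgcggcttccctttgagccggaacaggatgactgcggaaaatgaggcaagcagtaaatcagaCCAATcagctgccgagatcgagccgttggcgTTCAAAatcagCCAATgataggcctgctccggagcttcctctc
Ube2c (chr2:164769679-164769928, plus strand): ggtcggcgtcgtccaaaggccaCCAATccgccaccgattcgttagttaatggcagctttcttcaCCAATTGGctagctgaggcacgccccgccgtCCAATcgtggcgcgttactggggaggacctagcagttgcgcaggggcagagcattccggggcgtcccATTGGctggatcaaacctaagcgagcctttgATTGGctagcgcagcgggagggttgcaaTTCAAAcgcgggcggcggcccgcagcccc
Racgap1 (chr15:99651657-99651906, minus strand): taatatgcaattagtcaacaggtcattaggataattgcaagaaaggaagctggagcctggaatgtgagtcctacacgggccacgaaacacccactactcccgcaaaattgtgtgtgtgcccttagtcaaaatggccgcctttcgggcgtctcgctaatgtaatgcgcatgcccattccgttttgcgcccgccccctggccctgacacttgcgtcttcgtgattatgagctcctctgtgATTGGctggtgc

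The Ube2c window holds 6 CCAAT boxes, 2 of which overlap in CCAATTGG, and a CHR 29 bases before the start. In Bub3 a CHR 43 bases before the start lies between CCAAT boxes at 74 and 32 bases. Ect2 has a CHR 114 bases before the start, with CCAAT boxes at 96 and 55 bases. Beyond the printed stretch it has another CHR 39 bases after the start and a CCAAT box 1 base after the start. Nek2 has a CCAAT box at 26 bases, another 7 bases after the start that is not printed, and no TTTGAA in its window. TTTGAA, on either strand, was the only form of the CHR searched. Racgap1 has a CCAAT box at 12 bases, and its CHR lies just after the start and is not printed. All distances are from the RefSeq start. In GENCODE, Nek2, Bub3 and Ube2c begin at 191821444, 131560222 and 164769898, inside the printed stretches. By that annotation the printed CCAAT box of Nek2, all the marked letters of Bub3 and the CHR of Ube2c lie within the gene.

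Total counts were between 16111725 and 21728794 per library. Olfr2 had 0 counts in each of the 8 libraries, WT and KO alike, so it gave no check of the genotypes as labelled. The monocyte genes Ly6c2 (4058 to 6378 CPM), Ccr2 (1049 to 2260 CPM) and Lyz2 were abundant in every library. CPM here are counts scaled to library size with TMM factors. Between replicates a typical gene varied by 22.4% (edgeR common biological coefficient of variation). The column numbers of the table fall into a 1600 series (WT 1, WT 2, KO 1 and KO 2) and a 1700 series (WT 3, WT 4, KO 3 and KO 4), whose meaning the labels do not state.

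The comparison of KO with WT asked which of these genes differed with genotype. Nek2, Ercc6l and Ect2 rose in KO, each by more than 2 on the log2 scale. No member fell. These 3 of 43 tested members were called higher at 0.05 after Benjamini-Hochberg adjustment over all genes (edgeR quasi-likelihood test), against 0.223% of all genes tested, and 0 were called lower, against 0.838% of all genes. At an unadjusted p under 0.05, 35 of 43 members were higher (8.93% of all genes) and 0 were lower. The log2 difference, KO minus WT, was above 0 for 42 of 43 members (49.6% of all genes) and at least 1 for 35 (2.29% of all genes). Its median over the 43 was 2.05, against -0.0038 over all genes tested. These counts describe the tested members only. Of the 43, 27 reached the level of the filter in all 4 WT libraries. The filter asked for at least 4 libraries, so every other tested member needed KO libraries to enter the test. Among those others, 8 reached the level in 0 or 1 WT libraries. All 3 genes called needed KO libraries: Nek2, one of the 8, reached the level in 1 WT library, Ect2 in 2 and Ercc6l in 3. The count of genes called therefore carries no support of its own. In bulk RNA, fewer cells of a kind and less RNA per cell cannot be told apart.

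**Figure D1:**
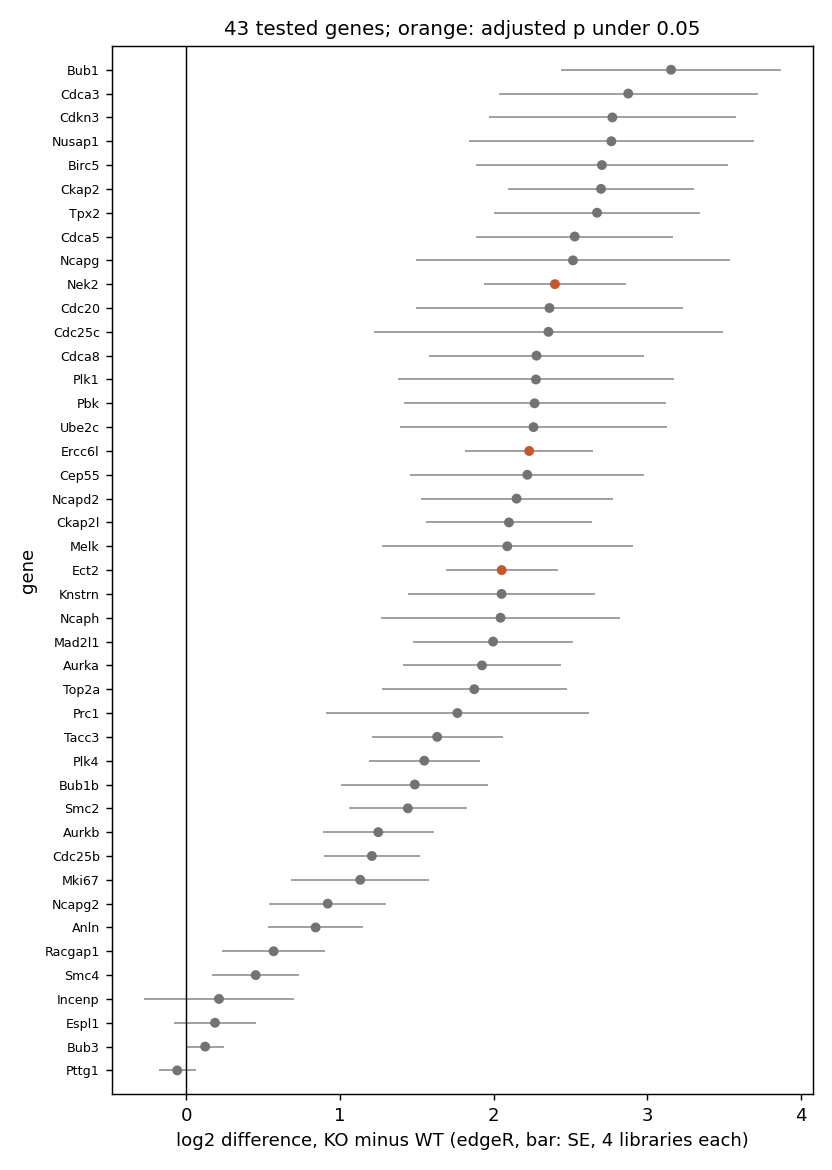
Log2 difference (KO minus WT, x axis) with its SE for the 43 tested genes, ordered by size, from edgeR on 4 libraries of each genotype. Most genes lie between 1 and 3.15, only Nek2, Ercc6l and Ect2 (orange) pass the adjusted threshold, and Bub3 and Pttg1 lie at 0.12 and -0.06.

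The wide bars in the plot of log2 differences go with the spread of the libraries within each genotype. The median SE of the 43 differences was 0.60. The genes called were not those with the highest differences but those with small SEs: Bub1 had the highest difference, 3.15 ± 0.71 (SE, edgeR adjusted p = 0.0596), and Ect2, at 2.05 ± 0.37, shared the lowest adjusted p of the members with Ercc6l (0.0341). At an adjusted p of 0.1, 13 members were higher (1.75% of all genes): the 3 above with Bub1, Plk4, Cdc25b, Ncapd2, Smc2, Cdca5, Ckap2, Ckap2l, Tacc3 and Tpx2.

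Among the mitotic kinases and spindle checkpoint genes, Nek2 rose. It encodes a kinase that separates the centrosomes before mitosis (chromosome 1, 191821444 to 191833050, plus strand). Its level was 0.360, 0.982, 0.378 and 0.248 CPM in WT 1 to 4 and 3.11, 4.12, 2.24 and 1.30 CPM in KO 1 to 4. Every KO library lay above every WT library, with KO 4 nearest to WT 2. The means were 0.492 ± 0.331 and 2.69 ± 1.21 CPM (SD, n = 4 each), and the log2 difference was 2.40 ± 0.46 (SE, edgeR adjusted p = 0.0350). These levels rest on 4 to 20 counts per WT library and 28 to 67 per KO library. An annotated gene on the opposite strand, Gm38037, overlaps an exon of Nek2.

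Bub3, which carries BUB1 and BUBR1 to unattached kinetochores, had the highest level of the members, also per kilobase of transcript, and a small difference. It had 370.5, 405, 444 and 350.3 CPM in WT 1 to 4 and 452, 479.7, 396 and 381 CPM in KO 1 to 4. The genotypes overlapped, with WT 3 above KO 3 and KO 4, and the log2 difference was 0.12 ± 0.12 (edgeR adjusted p = 0.586). Mad2l1, whose product binds and blocks CDC20 at the checkpoint, had 12.0, 27.4, 14.6 and 15.3 CPM in WT and 70.3, 128, 54.6 and 24.8 CPM in KO. Here WT 2 lay just above KO 4, and the difference of 2.00 ± 0.52 did not pass (edgeR adjusted p = 0.104). Pbk, a mitotic kinase, had 2.98, 25.5, 7.03 and 4.90 CPM in WT and 52.9, 86.9, 42.6 and 13.2 CPM in KO. WT 2 again lay above KO 4 and far above the other WT libraries, and the difference was 2.27 ± 0.85 (edgeR adjusted p = 0.203).

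The other kinases of this group had positive differences that did not pass. Aurka and Aurkb, the Aurora kinases of the spindle poles and of the passenger complex, had 1.92 and 1.25. Plk1, which acts throughout mitosis, and Plk4, which starts centriole duplication, had 2.28 and 1.55. Melk, a kinase of proliferating cells, had 2.09, and the checkpoint kinases Bub1 and Bub1b had 3.15 and 1.49. The adjusted p of these 7 genes lay between 0.0596 and 0.216 (edgeR). Ttk, the kinase that starts checkpoint signalling, was below the filter: it had 1, 8, 0 and 3 counts in WT 1 to 4 and 41, 53, 42 and 9 counts in KO 1 to 4. Each KO count of Ttk was above each WT count, by 1 count for KO 4 against WT 2. The counts by library of Ttk, and of Cdc25c, Cdca2 and Dlgap5 below, were picked for printing after they were seen.

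**Figure D2:**
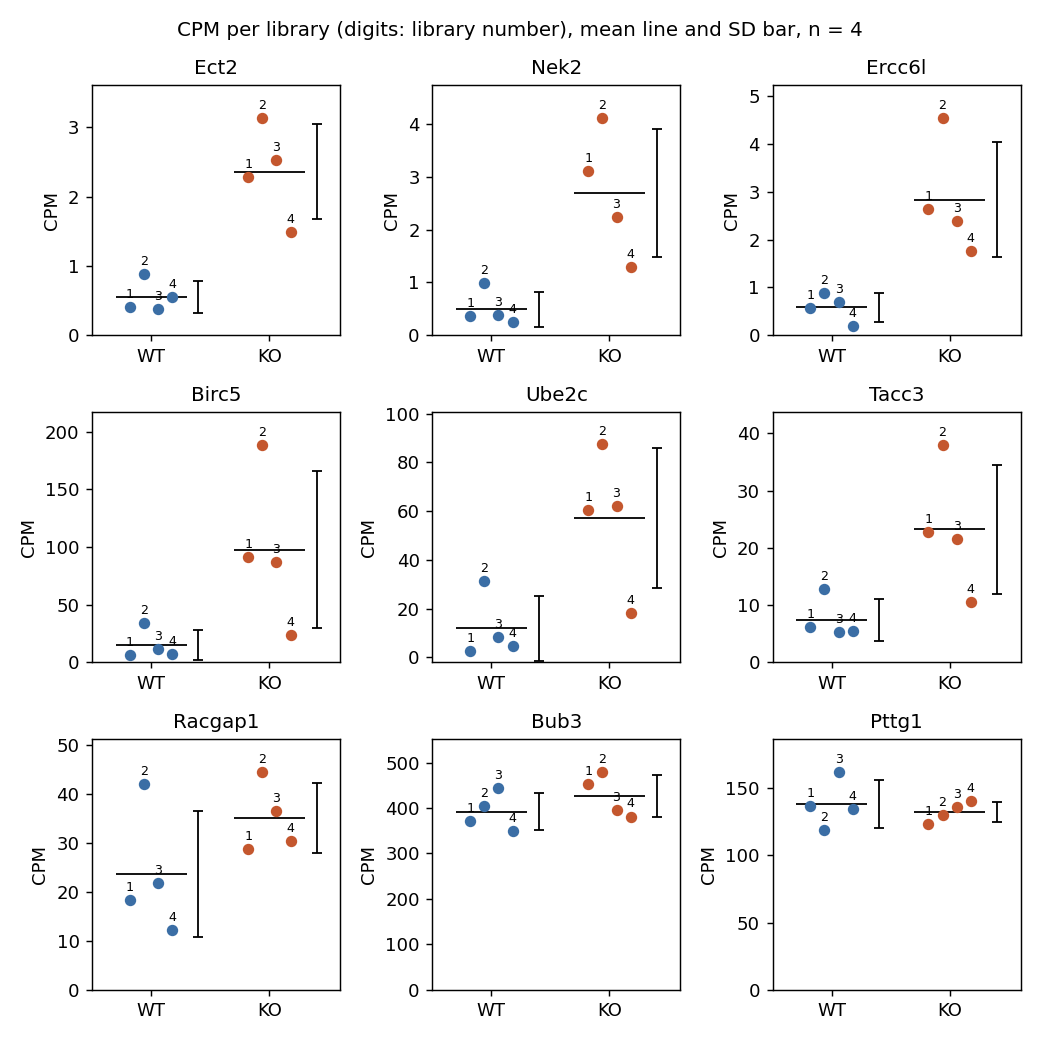
CPM of 9 genes in each library (points, numbered by library), with the mean as a line and the SD as a bar (n = 4 per genotype); each panel has its own linear axis, which includes 0. In Ect2, Nek2 and Ercc6l every KO library lies above every WT library, in Birc5 and Ube2c WT 2 lies above KO 4, and in Bub3 and Pttg1 the genotypes overlap.

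In the second role group, which controls CDK1 and the anaphase-promoting complex, 0 of 6 genes passed, and all 6 had differences between 1.21 and 2.88. Ube2c encodes the ubiquitin-conjugating enzyme that starts the chains built by the anaphase-promoting complex. It had 2.77, 31.4, 8.38 and 4.78 CPM in WT 1 to 4 and 60.5, 87.5, 62.0 and 18.1 CPM in KO 1 to 4. KO 1, KO 2 and KO 3 lay above all WT libraries, KO 4 lay below WT 2, and the difference was 2.26 ± 0.87 (SE, edgeR adjusted p = 0.211). Cdca3, an adaptor for destruction of the CDK1 inhibitor WEE1, had 2.31, 12.9, 2.38 and 2.61 CPM in WT and 35.1, 73.6, 30.2 and 11.2 CPM in KO, a difference of 2.88 ± 0.84 (edgeR adjusted p = 0.134). Cdkn3, a phosphatase that acts on cyclin-dependent kinases, had 2.21, 11.1, 4.49 and 2.92 CPM in WT and 31.7, 74.2, 28.8 and 8.50 CPM in KO, a difference of 2.77 ± 0.80 (edgeR adjusted p = 0.130). In both genes only WT 2 reached above KO 4.

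Cdc20, which activates the anaphase-promoting complex, had a difference of 2.36 ± 0.87. The phosphatases Cdc25b and Cdc25c, which switch CDK1 on, had 1.21 ± 0.31 and 2.36 ± 1.14. Cdc25c had 0, 46, 1 and 7 counts in WT 1 to 4 and 81, 96, 71 and 13 counts in KO 1 to 4. WT 2 therefore supplied 46 of its WT counts, and its SE was the highest of the group. Cdc25b, in contrast, had every KO library (2.28 to 5.54 CPM) above every WT library (1.12 to 2.26 CPM), by a margin of under 0.1 CPM between KO 4 and WT 1, and an adjusted p of 0.0721 (edgeR).

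Of the chromosome condensation genes, 0 of 8 tested passed, with differences between 0.45 and 2.52. Condensin I and condensin II share the ATPases SMC2 and SMC4. Smc4, one of these ATPases, had 3.34, 2.70, 1.62 and 2.67 CPM in WT 1 to 4 and 3.17, 5.17, 3.36 and 2.51 CPM in KO 1 to 4. The genotypes overlapped, since WT 1 lay above KO 1 and KO 4, and the difference was 0.45 ± 0.28 (SE, edgeR adjusted p = 0.377). Its partner Smc2 had a difference of 1.44 ± 0.39 (edgeR adjusted p = 0.0786).

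Ncapg and Ncaph encode subunits special to condensin I. Ncapg had 0.103, 2.95, 0.108 and 0.372 CPM in WT and 4.07, 10.1, 5.04 and 1.76 CPM in KO. Ncaph had 0.514, 3.14, 0.270 and 0.496 CPM in WT and 4.67, 8.37, 4.06 and 1.76 CPM in KO. In both, WT 2 was the one WT library above KO 4. The differences were 2.52 ± 1.02 and 2.04 ± 0.78 (edgeR adjusted p = 0.223 and 0.192). Ncapd2, also of condensin I, had a difference of 2.15 ± 0.62, and Ncapg2, of condensin II, 0.92 ± 0.38.

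Top2a, the topoisomerase that untangles sister chromatids, had a difference of 1.87 ± 0.60 (edgeR adjusted p = 0.130). Mki67, which coats mitotic chromosomes and is widely used as a marker of proliferation, was scarce: it had 0.360, 0.442, 0.919 and 0.683 CPM in WT and 1.26, 2.40, 0.794 and 0.882 CPM in KO. KO 3 and KO 4 lay below WT 3, and the difference was 1.13 ± 0.45 (edgeR adjusted p = 0.176). Within the 1600 series its difference was 2.15 and within the 1700 series 0.06. Mki67 is not among the genes of the naming rule and was chosen after its values were seen. Cdca2, which brings a phosphatase to chromatin at anaphase, was below the filter with 1, 2, 1 and 0 counts in WT 1 to 4 and 19, 28, 19 and 9 counts in KO 1 to 4.

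Chromatid release and the chromosomal passenger complex gave 1 call among 7 tested genes. Ercc6l, a helicase that works on the DNA bridges between separating chromatids, rose (chromosome X, 102141716 to 102157091, minus strand). Its level was 0.565, 0.883, 0.703 and 0.186 CPM in WT 1 to 4 and 2.64, 4.55, 2.38 and 1.76 CPM in KO 1 to 4. Every KO library was above every WT library, and WT 4 was the lowest of the 8. The means were 0.584 ± 0.296 and 2.83 ± 1.20 CPM (SD, n = 4 each), the difference was 2.23 ± 0.42 (SE, edgeR adjusted p = 0.0341), and the counts were 3 to 18 per WT library and 38 to 74 per KO library.

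Birc5 (survivin) and Cdca8 (borealin) encode subunits that place the passenger complex at centromeres. Birc5 had 6.22, 34.3, 11.8 and 7.45 CPM in WT 1 to 4 and 91.5, 189, 87.2 and 24.0 CPM in KO 1 to 4. Its means, 14.9 ± 13.1 and 97.8 ± 68.0 CPM (SD, n = 4 each), were 6.55-fold apart, but WT 2 lay above KO 4 and the difference of 2.70 ± 0.82 did not pass (SE, edgeR adjusted p = 0.142). Cdca8 had 3.19, 12.8, 3.84 and 2.42 CPM in WT and 27.4, 45.3, 27.5 and 8.68 CPM in KO, with a difference of 2.28 ± 0.70 (edgeR adjusted p = 0.141). Incenp, the scaffold of the same complex, lay at 0.205 to 0.736 CPM in WT and 0.327 to 0.984 CPM in KO. The genotypes overlapped there, the difference was 0.21 ± 0.49, and it was 0.92 in the 1600 series and -0.67 in the 1700 series.

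Cdca5 (sororin), which protects cohesin until anaphase, had a difference of 2.53 ± 0.64 (edgeR adjusted p = 0.0983). Separase and securin did not share this size. Pttg1 (securin), the inhibitor of separase, had 136, 119, 162 and 135 CPM in WT 1 to 4 and 123, 129.8, 136 and 141 CPM in KO 1 to 4. The KO range lay inside the WT range, and the difference was -0.06 ± 0.12 (edgeR adjusted p = 0.815), the one negative value among the tested members. Espl1 (separase), the protease that cuts cohesin, lay at 1.72 to 2.81 CPM in WT and 1.85 to 3.11 CPM in KO, and the difference was 0.19 ± 0.27 (edgeR adjusted p = 0.727).

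**Figure D3:**
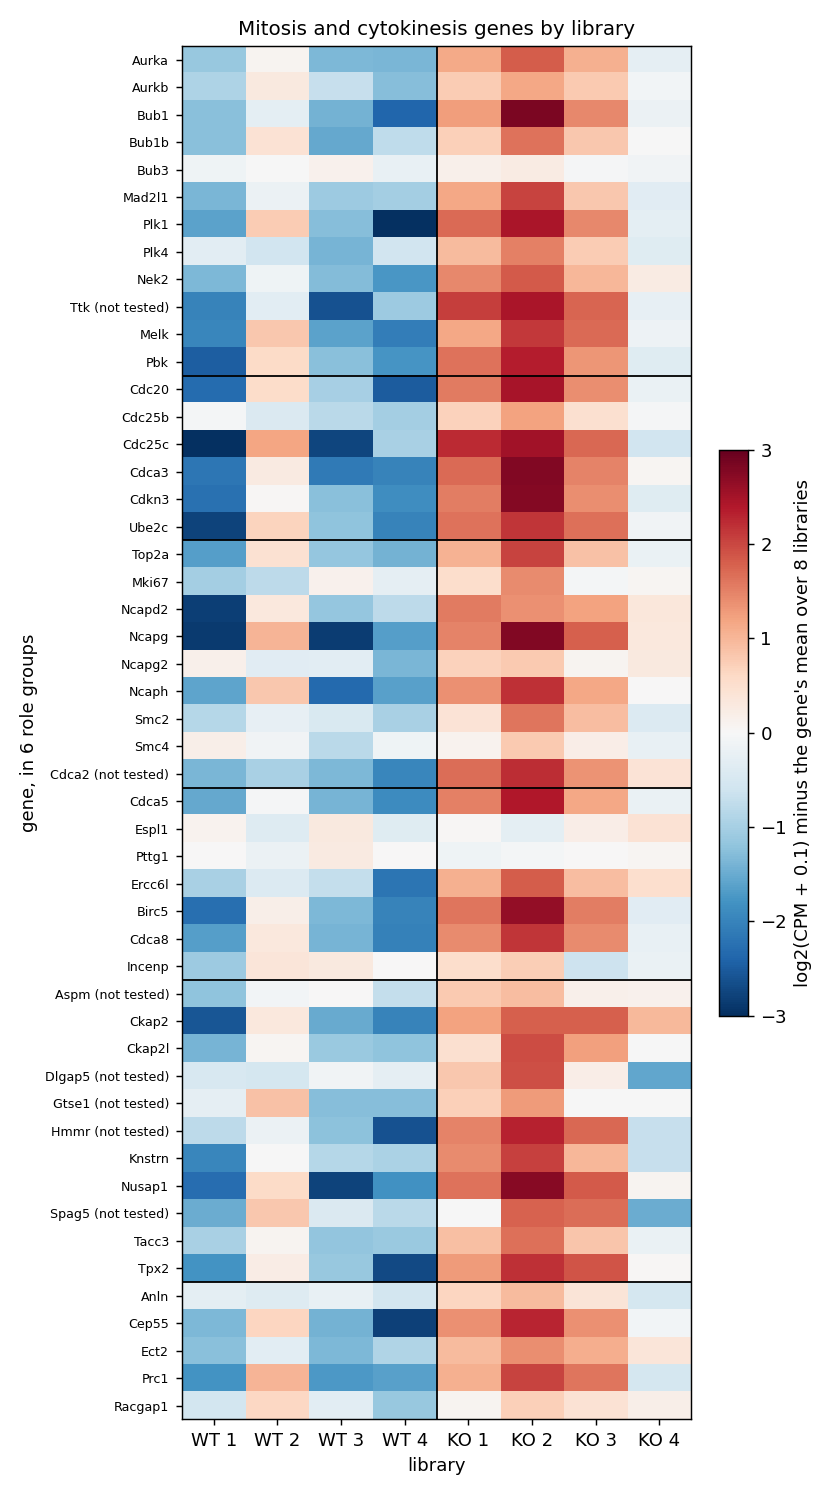
Each row is 1 of the 50 genes in the 6 role groups and each column a library; colour gives log2(CPM + 0.1) minus the mean of the gene over the 8 libraries, on a scale that ends at -3 and 3 (Plk1 in WT 4 and Cdc25c in WT 1 lie below it). KO 2 is the reddest column, KO 4 is paler than KO 1 and KO 3, WT 2 is paler than the other WT columns, and Bub3 and Pttg1 stay near white.

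Of the spindle genes, 6 of 11 were tested and 0 passed. Tacc3, which stabilizes the microtubules of kinetochore fibres, had 6.11, 12.9, 5.24 and 5.52 CPM in WT 1 to 4 and 22.8, 38.0, 21.6 and 10.5 CPM in KO 1 to 4. Again WT 2 was the one WT library above KO 4, and the difference was 1.63 ± 0.43 (SE, edgeR adjusted p = 0.0929). Nusap1, which bundles microtubules around chromosomes, had 1.18, 9.13, 0.811 and 1.68 CPM in WT and 19.1, 40.9, 22.05 and 6.50 CPM in KO, a difference of 2.77 ± 0.93 (edgeR adjusted p = 0.168). Knstrn, which with astrin attaches kinetochores to the spindle, had 0.873, 3.68, 2.00 and 1.86 CPM in WT and 10.002, 15.6, 7.52 and 2.23 CPM in KO, a difference of 2.05 ± 0.61 (edgeR adjusted p = 0.120). KO 4 lay below WT 2 in both genes and was close to WT 3 and WT 4 in Knstrn.

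Ckap2 and Ckap2l, related microtubule-associated proteins, and Tpx2, which activates Aurora A on the spindle, had differences of 2.70, 2.10 and 2.67 with adjusted p between 0.0535 and 0.0786 (edgeR). Ckap2 was the one tested spindle gene in which every KO library (1.67 to 3.04 CPM) lay above every WT library (0.0514 to 1.03 CPM). The 5 spindle genes below the filter had few counts. Aspm, which focuses spindle poles, had 2 to 7 counts in WT and 9 to 13 in KO, and Hmmr, a spindle assembly factor, 0 to 9 and 6 to 48. Dlgap5, a microtubule stabilizer, had 6 to 8 counts in WT and 15, 34, 12 and 2 in KO 1 to 4, Gtse1 0 to 7 and 3 to 8, and Spag5 (astrin) 0 to 8 and 0 to 17. No fold change is given for genes at so few counts.

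Cytokinesis gave 1 call among 5 tested genes. Ect2 encodes the exchange factor that activates RhoA at the equator of the dividing cell and so starts the contractile ring (chromosome 3, 27097222 to 27153878, minus strand). Its level was 0.411, 0.883, 0.378 and 0.559 CPM in WT 1 to 4 and 2.28, 3.14, 2.52 and 1.49 CPM in KO 1 to 4. The gap between the lowest KO library, KO 4, and the highest WT library, WT 2, was 0.60 CPM. The means were 0.558 ± 0.231 and 2.36 ± 0.683 CPM (SD, n = 4 each), a 4.22-fold ratio, and the difference was 2.05 ± 0.37 (SE, edgeR adjusted p = 0.0341). The counts behind these levels were 7 to 18 per WT library and 32 to 54 per KO library.

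Racgap1 and Prc1 organise the midzone of the spindle where ECT2 is recruited. Racgap1, a subunit of centralspindlin that binds ECT2, had 18.4, 42.0, 21.7 and 12.3 CPM in WT 1 to 4 and 28.7, 44.5, 36.6 and 30.5 CPM in KO 1 to 4. WT 2 lay above KO 1, KO 3 and KO 4, and the difference was 0.57 ± 0.33 (edgeR adjusted p = 0.362). Prc1, which crosslinks midzone microtubules, had 0.771, 5.99, 0.811 and 0.869 CPM in WT and 6.17, 12.1, 9.02 and 2.00 CPM in KO. WT 2 lay close to KO 1 and above KO 4, and the difference was 1.76 ± 0.85 (edgeR adjusted p = 0.289). Cep55, which recruits the machinery of abscission, had 0.514, 2.36, 0.486 and 0.124 CPM in WT and 3.95, 7.57, 3.97 and 1.39 CPM in KO, a difference of 2.22 ± 0.76 (edgeR adjusted p = 0.159). Anln, a scaffold of the contractile ring, had a difference of 0.84 ± 0.31, with KO 4 (1.39 CPM) inside the WT range of 1.37 to 1.73 CPM.

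Within single genes the order of the libraries repeated. KO 2 was the highest of the 8 libraries in 46 of 50 members (39 of 43 tested, against 18.8% of all genes tested). KO 4 was the lowest KO library in 44 (37 of 43 tested, 24.3% of all genes), and WT 2 the highest WT library in 39 (34 of 43 tested, 27.6% of all genes). WT 2 exceeded KO 4 in 35 (31 of 43 tested, 50.1% of all genes). Every KO library lay above every WT library in 10 members (7 of 43 tested, 5.35% of all genes): Bub1, Nek2, Ttk, Cdc25b, Ncapd2, Cdca2, Ercc6l, Aspm, Ckap2 and Ect2. Of the 7 tested, only Cdc25b reached the level of the filter in all 4 WT libraries. The rest needed KO libraries to enter the test, so the count of 7 carries no support. The reverse order was found in 0 members (6.06% of all genes). KO 4 lay above WT 1, WT 3 and WT 4 in 41 of 50 members (36 of 43 tested, 28.8% of all genes). It lay above all 4 WT libraries in 12 (9 of 43 tested), a share near the 21.2% of all genes. KO 1, KO 2 and KO 3 lay above all 4 in 39, 41 and 36 of the 43 tested, against 21.8%, 27.1% and 23.5% of all genes. Members share libraries, so these counts repeat a pattern of few libraries and are not independent observations. All counts over tested members also include genes that needed KO libraries to enter the test.

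The genotypes were also compared within each number series, where separation of 2 libraries from 2 is more frequent among all genes too. Both KO libraries lay above both WT libraries in 44 of 50 members in the 1600 series (39 of 43 tested, 25.6% of all genes) and in 41 in the 1700 series (36 of 43 tested, 27.3% of all genes), and in both series in 39 (35 of 43 tested, 8.75% of all genes). Here too the tested members include genes that needed KO libraries to enter the test. The median log2 difference was 2.10 in the 1600 series (48 members tested) and 2.17 in the 1700 series (43 tested). With 2 libraries against 2, 2 members passed in each series (edgeR): Plk4 and Cdca2 in the 1600 series, where 0.644% of all genes were called higher, and Cdca3 and Ckap2 in the 1700 series, where 0.182% were. Cdca2 had 1 and 2 counts in WT 1 and WT 2, and Ckap2 had 4 and 2 counts in WT 3 and WT 4. Both entered these fits through their KO libraries, so the number of members that passed carries no support. A test of the interaction between genotype and series called 0 of 43 members (edgeR, lowest adjusted p = 0.191) and 0.784% of all genes, and 1 member had an unadjusted p under 0.05.

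The calls of Nek2, Ercc6l and Ect2 depended on which libraries were included. They were lost in each series alone and without KO 1 and KO 2 together (edgeR adjusted p = 0.114 to 0.148). Leaving out 1 library ended all 3 calls for WT 1 (edgeR adjusted p = 0.0872 to 0.0971), WT 3 (0.142 to 0.150), WT 4 (0.0863), KO 2 (0.0892 to 0.0896) and KO 3 (0.0903 to 0.0915). Without KO 1, Ect2 stayed past the threshold (0.0476) and Nek2 (0.0521) and Ercc6l (0.0518) did not. All 3 calls were kept without WT 2 or KO 4, where 27 of 47 and 19 of 47 tested members were called higher, against 1.24% and 1.21% of all genes. The size of the difference moved less: over the 8 fits that left out 1 library it was 1.89 to 2.38 for Ect2, 2.13 to 2.99 for Nek2 and 1.92 to 2.50 for Ercc6l. With limma-voom 0 members passed (all 3 genes at an adjusted p of 0.0857; 0.0% of all genes), and with DESeq2 24 did, against 2.9% of all genes. With no filter 13 of 50 passed (1.01% of all genes), with the series as covariate 11 of 43 (0.9%) and with offsets for transcript length and GC content 0 (0.0%, all 3 genes at an edgeR adjusted p of 0.0753).

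Levels between genes can be compared only per length. Per kilobase of transcript, Bub3 and Pttg1 were highest in WT, at 97.7 and 82.5 CPM per kilobase. The next in WT were Pbk (5.87), Ube2c (5.40) and Racgap1 (5.27 CPM per kilobase). The length was that of the longest annotated transcript, and the ranking depends on this choice. Mad2l1, with 7557 bases, had a WT mean of 17.3 CPM but 2.29 CPM per kilobase. In KO, Birc5 (29.3), Pbk (28.4) and Ube2c (26.0 CPM per kilobase) followed Bub3 (106) and Pttg1 (79.2). Ect2, Nek2 and Ercc6l were low on this scale, at 0.110 to 0.152 CPM per kilobase in WT and 0.534 to 0.835 in KO. The 6 genes with log2 differences between -0.1 and 0.6 were Bub3, Pttg1, Espl1, Incenp, Smc4 and Racgap1, and they spanned the range of levels from Bub3 to Incenp (0.160 CPM per kilobase in WT).

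Depth limited the scarce members. Of the 50 genes, 18, 8, 18 and 23 were below 10 counts in WT 1 to 4, and for KO 1 to 4 the numbers were 2, 1, 3 and 7. Where a gene had 0 counts its level could still be as high as 3 counts, which is 0.139 to 0.186 CPM depending on the library; this floor covers counting error only. For 15 of the 50, an exon overlaps another annotated gene, and the strand setting of the counting is not given, so reads of the pair cannot be told apart. Examples are Ube2c with Tnnc2, Nusap1 with Oip5, Tacc3 with Tmem129, Prc1 with Rccd1 and Cdc20 with Elovl1.

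Genes that work beside these were read from the same fit. Over all genes tested, 0.223% were called higher and 0.838% lower, and these shares stand beside the counts of every list below. Of 9 tested mitotic kinesins 2 rose and 0 fell, with a median log2 difference of 2.30. Kif11, which pushes the spindle poles apart, had 0.103, 0.785, 0.162 and 0.186 CPM in WT 1 to 4 and 2.88, 5.47, 3.78 and 0.975 CPM in KO 1 to 4, a difference of 3.33 ± 0.65 (SE, edgeR adjusted p = 0.0432). Kif18a, which dampens chromosome movement, had a difference of 2.59 ± 0.50 (edgeR adjusted p = 0.0376). Both entered the test through their KO libraries: Kif11 reached the level of the filter in 1 WT library and Kif18a in 0, so the count of kinesins called carries no support. Of 27 tested kinetochore and centromere genes 2 rose and 0 fell, with a median of 1.94. They were Cenpn, which binds centromeric nucleosomes (2.10 ± 0.41, edgeR adjusted p = 0.0432), and Ska2, of the SKA complex (1.87 ± 0.36, edgeR adjusted p = 0.0387).

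Of 13 tested cyclins and cyclin-dependent kinases 0 passed, with a median of 2.04. Ccnb1, the mitotic cyclin B1, had 4.16, 37.4, 7.73 and 4.78 CPM in WT 1 to 4 and 93.4, 169.5, 84.1 and 22.8 CPM in KO 1 to 4, and Cdk1, its kinase, had 5.24, 26.4, 10.7 and 5.90 CPM in WT and 78.0, 149, 60.9 and 23.2 CPM in KO. WT 2 was above KO 4 in both, as in Birc5 and Ube2c. The core of the anaphase-promoting complex is made in resting cells too. A list of its genes with Fzr1, Ube2s and Fbxo5, which are not core subunits, had a median of 0.17 with 0 of 17 tested genes called. Fbxo5 had the highest difference of that list, 2.11 ± 0.77 (edgeR adjusted p = 0.186). Replication and S phase genes had a median of 1.30, with 2 of 38 tested genes higher and 0 lower: Tipin, of the replication fork (1.32 ± 0.27, edgeR adjusted p = 0.0495), and Nasp, a histone chaperone (0.94 ± 0.20, edgeR adjusted p = 0.0432). Ccnb1 and Cdk1 were named after their values were seen.

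**Figure D4:**
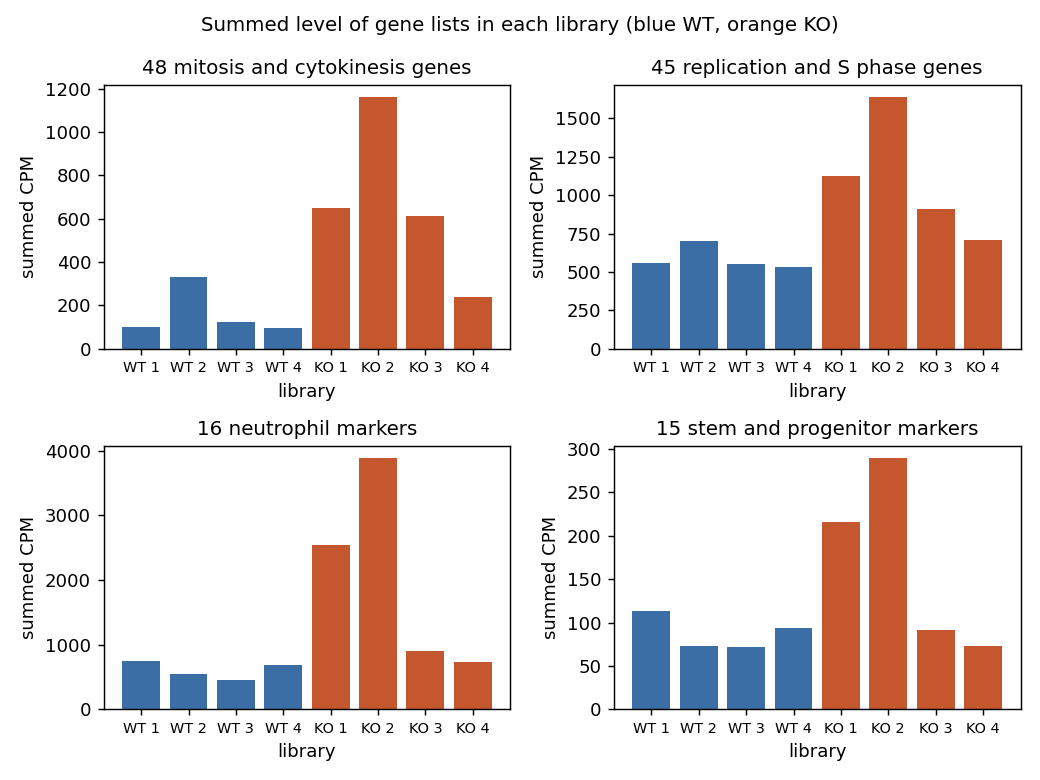
Summed CPM in each library (bars from 0, blue WT, orange KO) of 48 mitosis and cytokinesis genes (all but Bub3 and Pttg1), 45 replication and S phase genes, 16 neutrophil markers and 15 stem and progenitor markers. The neutrophil and progenitor markers are high in KO 1 and KO 2, while the mitosis genes are high in KO 1, KO 2 and KO 3, with WT 2 (330.4) above KO 4 (240.5).

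Summed over the 48 members other than Bub3 and Pttg1, the level was 99.5, 330.4, 125 and 96.3 CPM in WT 1 to 4 and 648.5, 1159, 614 and 240.5 CPM in KO 1 to 4. The sum of 45 replication and S phase genes was 558, 701.5, 548.5 and 533 CPM in WT and 1122, 1636, 913 and 709 CPM in KO. Both sums had KO 2 as the highest library and WT 2 as the highest WT library. In the S phase sum KO 4 lay just above WT 2, and in the mitosis sum below it.

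Markers of other cells were read too. The sums of neutrophil and of progenitor markers were highest in KO 1 and KO 2, and in KO 4 both lay inside the WT range. The part of such markers in the differences of the mitosis genes was not tested, and the values are given as a description. The 16 neutrophil markers summed to 454 to 753 CPM in WT and 2547, 3884, 906 and 730.3 CPM in KO 1 to 4, with 0 of 8 tested called. Mmp8 made up most of the sum in WT, KO 3 and KO 4, with 229.5 to 523.7 CPM in WT and 703.8, 819.5, 637.9 and 514.6 CPM in KO 1 to 4. S100a9, the calprotectin subunit of neutrophils, had 7.30 to 16.3 CPM in WT and 479, 789, 31.6 and 20.3 CPM in KO 1 to 4. Ngp and Camp, granule genes of neutrophil precursors, had 42.6 to 108 CPM in KO 1 and KO 2 and at most 1.54 CPM in the other 6 libraries. S100a9 also lay above the WT range in KO 3 and KO 4, but other tested neutrophil markers did not share this. S100a8, Mmp8 and Fcnb lay above the WT range in KO 3 and inside it in KO 4. S100a8 had 73.9 and 39.6 CPM there, against 24.3 to 48.6 CPM in WT. Lcn2 lay inside the WT range in both, at 23.5 and 12.2 CPM. Csf3r, Cebpe and Ltb4r1 had log2 differences of 0.07, -0.17 and -0.26. The sum of mitosis genes was 648.5 CPM in KO 1 and 614 CPM in KO 3, and KO 3 exceeded KO 1 in 21 of 50 members. Without KO 1 and KO 2, 41 of 43 tested members had a difference above 0 (49.2% of all genes), with a median of 1.47. Of these, 15 had an unadjusted p under 0.05 (edgeR; higher in 5.56% of all genes), and 0 passed after adjustment (0.0% of all genes called higher).

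The 15 stem and progenitor markers summed to 72.3 to 113 CPM in WT and 216, 289, 91.9 and 73.1 CPM in KO 1 to 4, with 0 of 7 tested called. Gata2 and Hoxa9 were at 0 counts in all 8 libraries and Kit at 0.240 CPM or less. Elane, a protease of granulocyte and monocyte progenitors, had 56.8, 93.2, 11.1 and 3.25 CPM in KO 1 to 4 and 2.48 to 7.71 CPM in WT. Its log2 difference, 3.27, was the highest of the 7 tested, and the other tested markers did not share its size. Cd34, Ly6a and Flt3 had log2 differences of -0.011, -0.11 and 0.18. Meis1, Prtn3 and Ctsg had 0.66, 1.11 and 1.53, and Prtn3 lay below the WT range in KO 3 and KO 4. Erythroid markers (12 in the table) summed to 5.14 to 11.9 CPM in WT and 6.87 to 28.4 CPM in KO, with 0 of 5 tested called. The 12 T and NK markers summed to 2.05 to 2.92 CPM in WT and 3.18 to 5.23 CPM in KO, and the 1 tested, Nkg7, rose (1.92 ± 0.41 on the log2 scale, edgeR adjusted p = 0.0433) but reached the level of the filter in 0 WT libraries and so was tested through KO alone, with Ncr1 at 0 and Cd3e at 0.120 CPM or less. The 12 B and plasma cell markers summed to 1280 to 1853 CPM in WT and 1347 to 1691 CPM in KO, most of it Xbp1, with 0 of 5 tested called and Pax5 and Ebf1 at 0. The 12 dendritic cell markers summed to 412.5 to 641 CPM in WT and 256, 181, 656 and 620 CPM in KO 1 to 4, with Siglech at 0 and Bst2 lower in KO (1 of 7 tested). The 15 Ly6Chigh monocyte markers had 0 called of 15 and a median log2 difference of 0.11, over a range from -1.11 to 1.40. The ends of that range were Fn1 (edgeR adjusted p = 0.0583) and Chil3 (edgeR adjusted p = 0.0786). Chil3 had 6823 to 12300 CPM in WT and 33760, 44050, 17380 and 18930 CPM in KO 1 to 4, highest in KO 1 and KO 2 as the neutrophil markers were.

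The promoter letters were compared with all promoters of the RefSeq table, as a description. Of the 50 members 41 matched by symbol, with 46 windows of 300 bases (250 before the start and 50 after); Aurkb, Cdc25c, Cdca2, Dlgap5, Ercc6l, Incenp, Pbk, Smc4 and Tpx2 had no entry. TTTGAA, on either strand, was in 32 of 46 windows (69.6%), against 17.9% of all 32851 windows. CCAAT, on either strand, was also in 32 (69.6%), against 37.4%, and both together were in 27 (58.7%), against 6.95%. E2F letters were searched on either strand in 4 forms, first TTCCCGC, then TTCGCGC, then TTGCCGC and last TTGGCGC. At least 1 form was in 11 windows (23.9%), against 9.57%. In the first window of each gene, TTTGAA lay within 50 bases of the start in 24 of the 28 genes that had it. In 40 of the 46 windows, bases after the start lay in a GENCODE transcript of the gene. They did not in the first windows of Aurka, Cep55 and Smc2, which hold TTTGAA near the start, so distances are less certain there. Starts can also differ between RefSeq and GENCODE, as they did for Nek2, Bub3 and Ube2c.

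Holding the CHR letters did not go with the size of the difference. The 24 tested members with TTTGAA had a median log2 difference of 2.08, from 0.12 (Bub3) to 2.88 (Cdca3). The 12 tested members without it had a median of 2.05, from -0.06 (Pttg1) to 3.15 (Bub1). Bub3, whose window printed above holds a CHR between CCAAT boxes, overlapped between the genotypes. Nek2, whose window holds CCAAT and no TTTGAA, rose. Other forms of the CHR were not searched. Letters in a window are not binding sites, and no binding was measured here.

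**Figure D5:**
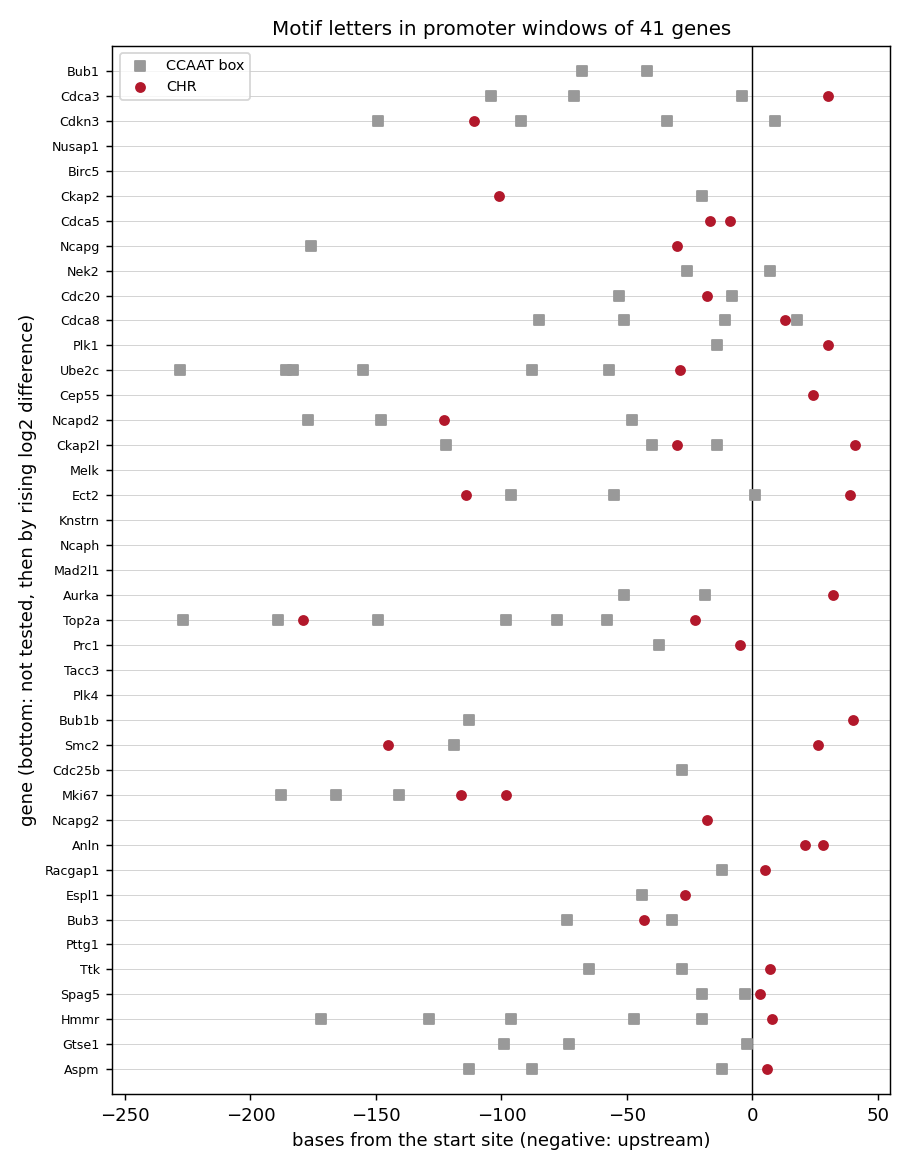
Positions of CCAAT (grey squares) and CHR letters (red circles), on either strand, in the first promoter window of 41 genes, in bases from the start site (x axis, negative upstream), with genes ordered by log2 difference from Bub1 at the top to Pttg1 and then the untested genes. The CHR letters gather near the start in genes of high and low difference alike.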

How the data were processed

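Per the labels' protocols, RNA of sorted spleen monocytes was reverse transcribed from an oligo-dT primer with template switching (SMART-Seq v4) and amplified. The authors deposited 1 table of raw counts for 8 libraries. The submitters' processing notes name GRCm38 as build and HISAT2 2.0.5 and featureCounts 1.5.0-p3 as tools. Their settings, the strand mode and the annotation release were not given in the sources used here. The reads were amplified and carry no stated molecular identifiers, so counts are not independent molecules.

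The deposited counts were tested in R 4.3.3 with edgeR 4.0.16 (filterByExpr with a minimum count of 10, TMM, robust quasi-likelihood) over all 11222 genes kept, with Benjamini-Hochberg adjustment at 0.05. A gene was kept if it reached about 0.535 CPM in at least 4 libraries. The test was checked on simulated data. Alternatives were RLE size factors, no filter, a stricter filter (1 CPM in 4 libraries), DESeq2 1.42.0, voom of limma 3.58.1, the title numbers as a block, the number series as covariate, each series alone, offsets for length and GC content (splines with 5 degrees of freedom), libraries left out and an adjusted p of 0.1. Transcript lengths (of the longest transcript of each gene) and gene coordinates are from GENCODE M21 on GRCm38. The labels do not say that the title numbers pair libraries, so the main fit held no pairs. Over all genes tested, same-numbered libraries of the genotypes deviated from their group means with correlations of -0.013, -0.028, -0.049 and 0.093. Such low values cannot exclude pairing.

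The members and lists were chosen with earlier results of these data known. Values in every library are given for members past the threshold and for the 3 of highest mean CPM in each role group (21 in all); genes outside this rule, markers among them, were named after their values were seen. Called genes of the other lists are named.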

Additional observations from a re-analysis of the deposited data

Results flagged for a closer look

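In each of the 50 genes and both genotypes, the library farthest from the other 3 was compared with the range of the 4. Of these 100 groups, 13 had a library that stood apart by Dixon's 95% criterion, where chance gives about 1 in 20, or 5. All 13 were WT 2, on the high side, and 0 were in another library. Among kinases these were Aurka (15.1 CPM in WT 2, next WT library 6.42) and Melk (4.81 CPM, next 0.811). Cdca3 had 12.9 CPM in WT 2 (next 2.61). Of the condensation genes, Top2a had 2.55 CPM (next 0.757), Ncapg 2.95 CPM (next 0.372) and Ncaph 3.14 CPM (next 0.514). Cdca5 had 5.79 CPM (next 2.22) and Cdca8 12.8 CPM (next 3.84). Of the spindle genes, Ckap2 had 1.03 CPM (next 0.216), Ckap2l 0.736 CPM (next 0.270), Nusap1 9.13 CPM (next 1.68) and Tacc3 12.9 CPM (next 6.11). Prc1, of the spindle midzone, had 5.99 CPM (next 0.869). The genes share a library, so these are not 13 independent events. The neutrophil markers, which were high in KO 1 and KO 2, summed to 547 CPM in WT 2, inside the range of the other WT libraries (454 to 753 CPM). Mmp8 alone was 327 CPM of that sum, and single markers differed. S100a9 was highest of the WT libraries in WT 2 (16.3 CPM), as was the progenitor gene Elane (7.71 CPM). S100a8 was higher in WT 4 (48.6 CPM) than in WT 2 (34.8 CPM), and Ngp and Camp were at 0 in WT 2. A link between these markers and the mitosis genes of WT 2 was not tested.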

How the results depend on the processing

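Of 812 values of single members under 19 alternatives, 669 kept their direction and side of the threshold, 102 gained the threshold, 32 lost it and 9 changed sign, and 39 of 43 members kept their direction in all. The 9 were Bub3 in the 1700 series (-0.031) and without KO 1 and KO 2 (-0.0020), Espl1 in the 1600 series (-0.010), Pttg1 without KO 1 and KO 2 (0.017) or WT 3 (0.028), and Incenp in the 1700 series (-0.67), without KO 1 and KO 2 (-0.46), WT 1 (-0.062) or KO 2 (-0.043). When 1 library or KO 1 and KO 2 were left out, Bub3 lay between -0.0020 and 0.19, Pttg1 between -0.12 and 0.028 and Incenp between -0.46 and 0.45. The genes called over the whole table, 119 with edgeR, were 742 with no filter, 784 with DESeq2, 0 with limma-voom, 251 with the series as covariate, 1 with offsets for length and GC content, 7 when both KO 1 and KO 2 were left out and 0 to 515 when 1 library was left out. The members called, 3 with edgeR, were 13, 24, 0 (37 at an unadjusted p under 0.05), 11, 0 (34 at an unadjusted p under 0.05), 0 and 0 to 27 in the same order, and 13 at an adjusted p of 0.1; 0 were called lower in any of these. The median log2 difference moved from 2.05 to between 1.47 and 2.99 when 1 library or KO 1 and KO 2 were left out, and 2.99 without WT 2 was the one value beyond the spread of the libraries. The genes called for the interaction with the series, 88 with edgeR, were 645 with no filter, 431 with DESeq2, 57 with limma-voom, 6 with the offsets and 3 to 628 when 1 library was left out, with 0 members called in the fit described. With the title numbers as a replicate block, 244 genes and 31 members passed (1.27% of all genes were higher). The labels do not say whether these numbers pair the libraries, and the low correlations given above cannot exclude it. The causes of these changes were not tested. Depth limits the members with under 10 counts in WT, whose differences rest on few reads.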

Other observations

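Genes that hold cells out of the cycle were read from the same fit. Of 11 tested CDK inhibitors and quiescence genes 0 passed (edgeR; 3 at an unadjusted p under 0.05), with a median log2 difference of -0.16. Klf4, a factor that restrains proliferation and drives monocyte differentiation, had 4.57, 2.65, 5.51 and 2.17 CPM in WT 1 to 4 and 1.44, 1.23, 1.96 and 1.39 CPM in KO 1 to 4. Every KO library lay below every WT library, and the difference of -1.30 ± 0.32 did not pass (SE, edgeR adjusted p = 0.0611). Cdkn1a, the inhibitor p21, had a difference of 0.02 ± 0.22 (edgeR adjusted p = 0.974). Both were named after their values were seen.

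Of 12 tested cohesin genes 1 rose and 1 fell (0.223% and 0.838% of all genes tested). Esco2, the acetyltransferase that makes cohesin hold sister chromatids in S phase, had 0.308, 1.42, 0.324 and 0.434 CPM in WT 1 to 4 and 4.73, 9.23, 4.44 and 2.18 CPM in KO 1 to 4, a difference of 3.00 ± 0.57 (edgeR adjusted p = 0.0432). It reached the level of the filter in 1 WT library and so entered the test through KO. Nipbl, which loads cohesin on chromatin in all phases of the cycle, had 7.55, 3.63, 7.08 and 8.50 CPM in WT and 2.64, 2.52, 1.73 and 2.37 CPM in KO, a difference of -1.53 ± 0.27 (edgeR adjusted p = 0.0341). The ring subunits Smc1a, Smc3 and Rad21 had differences of -0.22, -0.39 and -0.24, with adjusted p between 0.482 and 0.677 (edgeR).

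Of 16 tested regulators of mitotic gene transcription 0 passed (edgeR; 4 at an unadjusted p under 0.05), with a median of 0.13. Foxm1 and Mybl2, which switch on mitotic genes, were below the filter. Mybl2 had 0 to 0.196 CPM in WT and 1.08, 2.28, 0.561 and 0.139 CPM in KO 1 to 4. Foxm1 had 0 to 0.0514 CPM in WT and 0.839, 0.554, 0.420 and 0.139 CPM in KO. The values of these 2 genes were chosen after they were seen.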
